A study of Mus musculus with 6 samples.

Results

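Inflammasomes are cytosolic complexes that activate inflammatory caspases, and 10 genes of this machinery were followed in bone marrow-derived macrophages (BMDM) with and without the PP2A catalytic subunit PP2Ac. The genes were taken by symbol from the 55453 genes of the deposited count table. They are the sensors *Nlrp3*, *Nlrp1b*, *Nlrc4*, *Naip2* and *Naip5*, the adaptor *Pycard*, the caspases *Casp1* and *Casp4*, and the executors *Gsdmd* and *Ninj1*. All 10 were found and all 10 passed the filter on low counts, with at least 582 reads in each library. RNA-Seq was available for 6 libraries, 3 from PP2A KO BMDM (PP2Ac KO) and 3 from Wild Type BMDM (PP2Ac WT), all of strain C57BL/6. According to the study, the PP2Ac KO cells came from LysMcre PP2Ac fl/fl mice, in which *cre* is driven by the LysM promoter of myeloid cells and the first exon of *Ppp2ca* is floxed. Its LysMcre PP2Ac fl/fl mice were provided by the University of Michigan, and its WT mice came from The Jackson Laboratory. An effect of PP2Ac loss therefore cannot be told apart from one of mouse source or of *cre*. The study describes these BMDM as treated with the STING agonist cGAMP in both genotypes. The labels of the libraries give neither a treatment nor an age, and no untreated BMDM were analysed here, so that a difference between the genotypes cannot be split into one before and one after cGAMP.

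In the canonical pathway a sensor such as NLRP3 binds the adaptor ASC, the product of *Pycard*, which recruits and activates caspase-1. Caspase-1 cleaves the precursors of IL-1β and IL-18 and also gasdermin D, whose N-terminal part forms pores in the plasma membrane and leads to pyroptosis. NAIP proteins bind bacterial flagellin or parts of type III secretion systems and then assemble with NLRC4. Mouse *Casp4* encodes caspase-11, the sensor of cytosolic lipopolysaccharide in the noncanonical pathway, which cleaves gasdermin D as well. Ninjurin-1, the product of *Ninj1*, carries out the rupture of the plasma membrane that follows. In macrophages the level of *Nlrp3* is low until NF-κB signals raise it, a step known as priming, and *Casp4* is known as an interferon-inducible gene.

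The libraries held between 35257156 and 47390899 reads counted on genes, and 13680 genes were tested. *Ppp2ca*, the targeted gene, had 47, 33 and 38 reads in PP2Ac KO against 10654, 8913 and 8279 in PP2Ac WT. Of 9 macrophage markers, all 9 were detected in every library, with a summed level of 7821 to 8003 CPM (reads scaled to library size by TMM) in PP2Ac KO and 6687 to 7300 CPM in PP2Ac WT. *Lyz2*, whose promoter is the LysM promoter that drives *cre*, was the lowest of them at 8.86 and 7.30 CPM. Whether that low value is its level or comes from how reads were counted was not tested. Of the 9 macrophage markers, 2 passed FDR under 0.05 as higher in PP2Ac KO and 0 as lower, beside 18.1% and 19.0% of all genes tested. Neutrophil markers, of a cell type that also holds NLRC4 and NLRP3, summed to 0.969 to 1.04 CPM and 0.765 to 1.01 CPM, and 5 of the 9, *Ly6g* among them with 0 reads, had at most 3 reads in every library. The 5 fibroblast markers summed to 23.3 to 35 CPM in PP2Ac KO and 76.5 to 121 CPM in PP2Ac WT, and all 5 were lower in PP2Ac KO. The part of these markers in the results was not tested. In bulk RNA, fewer cells of a type cannot be told apart from less RNA per cell. Nothing in the labels says that the libraries of a genotype came from separate mice, so that p-values measure the spread between these libraries, which may be technical.

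All 10 genes had more normalized reads in PP2Ac KO than in PP2Ac WT BMDM, and 8 of the 10 passed FDR under 0.05 in that direction, where the estimate for *Nlrc4*, which did not pass, turned to -0.017 on the log2 scale with libraries scaled by their totals alone. Among all genes tested, 18.1% were higher at this threshold and 19.0% lower. The genes fell into a set of 4 with large differences, *Nlrp3*, *Casp4*, *Casp1* and *Gsdmd*, between 1.77-fold and 3.0-fold, and a set of 6 with differences between 1.15-fold and 1.28-fold, a division made after their values were seen. Only *Nlrp3* and *Casp4* passed a log2 fold change over 1 with FDR under 0.01, a threshold that 3.36% of all genes tested passed upward and 2.99% downward in mirror image. No member was lower, by edgeR, DESeq2 or limma-voom, where DESeq2 called 2280 and limma-voom 2571 of all genes tested lower. At an unadjusted p under 0.05, 0 of the 10 were lower, which follows from all 10 estimates being above 0. In each of the 10 genes the lowest PP2Ac KO library lay above the highest PP2Ac WT library, as it did in 24.0% of all genes tested. The median log2 fold change was 0.33 over the 10 genes and -0.02 over all genes tested.

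**Figure D1:**
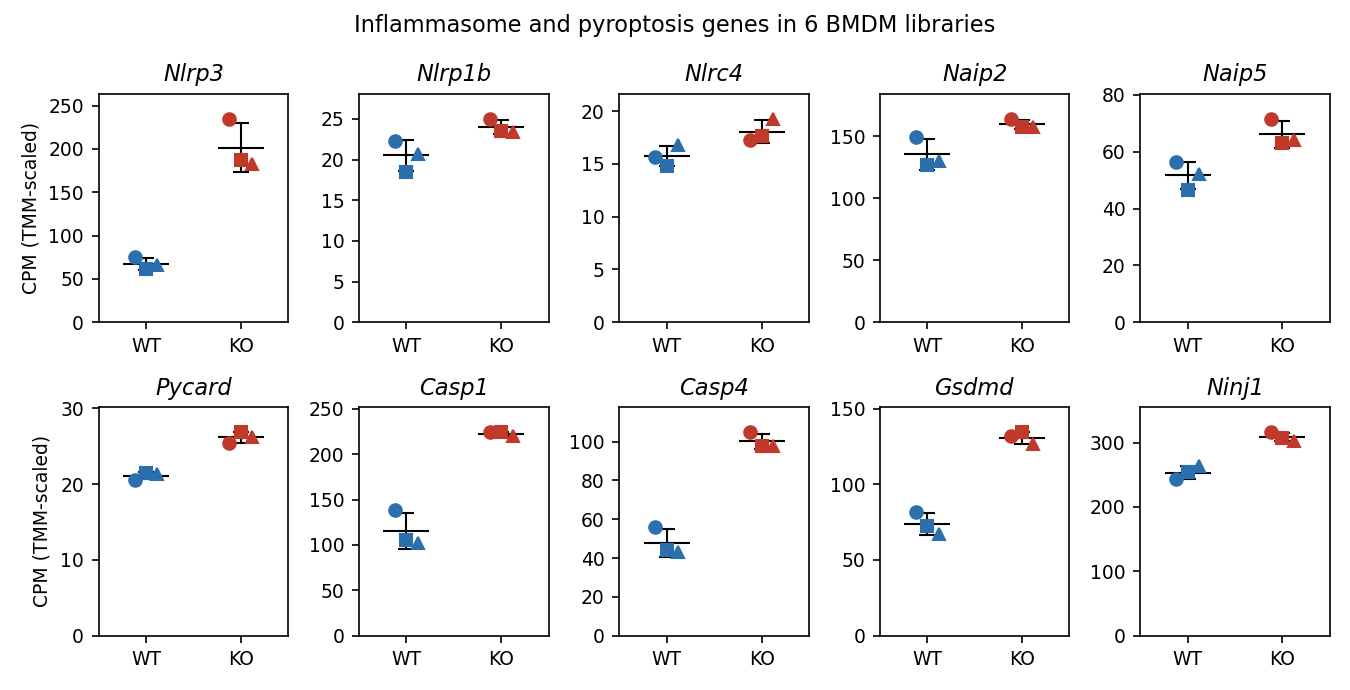
Level of each of the 10 genes in CPM, scaled by TMM, on an axis from 0, with a point for each library (circle, square and triangle for replicates 1, 2 and 3) and the mean with its SD (n = 3) in black. The PP2Ac KO points lie above the PP2Ac WT points in each panel, with the widest gap in *Nlrp3* and the narrowest in *Nlrc4*.

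*Nlrp3*, the sensor of potassium efflux and many other disturbances of the cell, changed most. It is on the forward strand, chromosome 11 (59541568 to 59566956 in GRCm38). Its level was 235, 188 and 183 CPM in PP2Ac KO, against 74.7, 60.8 and 65.8 CPM in PP2Ac WT. The lowest PP2Ac KO library was thus 2.44 times the highest PP2Ac WT library. The log2 fold change was 1.59 (standard error, SE, 0.11, 95% interval 1.33 to 1.84, adjusted p = 5.40e-05 by the quasi-likelihood test of edgeR with Benjamini-Hochberg adjustment), and 1.16% of all genes tested had a larger one. Replicate 1 was the highest library in both genotypes.

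*Casp1* and *Casp4* lie next to each other on chromosome 9 (forward strand), from 5298517 to 5307265 and from 5308828 to 5336783, with 1562 bp between them. *Casp1* had 224, 224 and 220 CPM in PP2Ac KO, against 138, 106 and 102 CPM in PP2Ac WT. The PP2Ac KO libraries were close to each other, and in PP2Ac WT replicate 1 stood above the other two. The log2 fold change of *Casp1* was 0.95 (SE 0.11, 95% interval 0.70 to 1.19, edgeR's adjusted p = 2.74e-04). *Casp4* had 105, 97.9 and 97.8 CPM in PP2Ac KO, against 56.0, 44.0 and 42.9 CPM in PP2Ac WT, with the same library on top in PP2Ac WT. Its log2 fold change was 1.07 (SE 0.10, 95% interval 0.85 to 1.30, edgeR's adjusted p = 1.14e-04). No window of 50 bases in the transcripts of either caspase gene occurs in those of another gene.

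To ask whether the neighbouring caspase genes differed in size of response, reads on *Casp4* were divided by reads on *Casp1* in each library. The ratio was 0.467, 0.437 and 0.445 in PP2Ac KO and 0.405, 0.416 and 0.421 in PP2Ac WT, a quotient that does not depend on the scaling of libraries. The ratios did not overlap, and the difference in log2 ratio was 0.12 (exact two-sided permutation test, p = 0.1, the smallest p that 3 against 3 allows). The mean ratio was 1.09 times as high in PP2Ac KO, and a difference in response between the caspase genes was not established. For *Nlrp3* and its adaptor *Pycard* the same ratio was 9.23, 6.99 and 6.94 in PP2Ac KO and 3.63, 2.83 and 3.08 in PP2Ac WT, a difference in log2 ratio of 1.27 (exact two-sided permutation test, p = 0.1).

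*Gsdmd*, the pore-forming substrate of both caspases, is on the forward strand, chromosome 15 (75862327 to 75867408). It had 132, 134 and 126 CPM in PP2Ac KO, against 81.5, 72.4 and 67.3 CPM in PP2Ac WT. The groups were well apart, with the lowest PP2Ac KO library 1.55 times the highest PP2Ac WT library. The log2 fold change was 0.83 (SE 0.08, 95% interval 0.65 to 1.0, edgeR's adjusted p = 1.19e-04). *Nlrp3*, *Casp1*, *Casp4* and *Gsdmd* passed FDR under 0.05 under each of the 14 alternative settings, with log2 fold changes of 1.37 to 1.67, 0.74 to 1.10, 0.86 to 1.20 and 0.61 to 0.91. These genes were grouped after their values were seen and the settings refit the same libraries, so this is no independent support.

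Promoter sequences from RefSeq (GRCm38.p6) were searched for elements of NF-κB and interferon signalling, the inputs named above for *Nlrp3* and *Casp4*. Windows of 300 bases, 250 before and 50 after the start of a gene, were found for 9 of the 10 genes, all but *Gsdmd*, 12 windows in all. The motifs reported here, read on both strands, were the core of the interferon-stimulated response element (a GAAA followed, after any 2 bases, by another GAAA) and the NF-κB consensus. They occur in 3.44% and 8.46% of all 32851 windows of this length. The interferon element was found in no window of the 10 genes, and the NF-κB consensus was found in a window of *Nlrp3*, *Casp4* and *Naip5*. The 250 bases before the start are shown for 3 genes of the set with large differences, with matches to the NF-κB consensus in capitals. They are chr11:59541319-59541568 for *Nlrp3* (the outer of its windows), chr9:5308599-5308848 for *Casp4* and chr9:5298267-5298516 for *Casp1*, which holds no match, all on the forward strand.
Nlrp3: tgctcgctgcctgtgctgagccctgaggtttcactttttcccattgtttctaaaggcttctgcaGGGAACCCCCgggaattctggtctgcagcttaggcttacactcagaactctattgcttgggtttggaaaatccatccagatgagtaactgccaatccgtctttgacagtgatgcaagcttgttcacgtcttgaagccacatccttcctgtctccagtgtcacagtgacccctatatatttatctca
Casp4: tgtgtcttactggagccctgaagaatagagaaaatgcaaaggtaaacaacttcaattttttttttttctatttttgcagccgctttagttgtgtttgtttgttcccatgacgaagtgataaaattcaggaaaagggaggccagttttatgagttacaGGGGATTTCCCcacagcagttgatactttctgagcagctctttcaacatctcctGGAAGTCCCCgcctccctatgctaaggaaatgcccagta
Casp1: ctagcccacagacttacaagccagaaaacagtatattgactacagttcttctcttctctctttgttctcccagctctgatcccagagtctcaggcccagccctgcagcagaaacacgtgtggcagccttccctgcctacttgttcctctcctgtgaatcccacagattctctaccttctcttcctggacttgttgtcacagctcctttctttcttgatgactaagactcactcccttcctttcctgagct
In *Nlrp3* the match starts 186 bases before the start of the gene. In *Casp4* overlapping matches begin 93 and 92 bases before the RefSeq start of the window shown. A further match, on the other strand, begins 39 bases before that start. From the start of the second *Casp4* window these distances are 104, 103 and 50 bases. RefSeq starts can differ from the GENCODE loci given here. For *Casp4*, 21 of the bases shown lie in a GENCODE exon. The *Naip5* window, 100247287 to 100247586, lies outside its GENCODE locus, which ends at 100246323. A match describes these letters and is not evidence that a factor was bound, and a window without a match says only that these letters are not in it.

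Of the other sensors, *Naip5* and *Naip2* were slightly higher in PP2Ac KO and *Nlrp1b* and *Nlrc4* did not pass the test. *Naip5*, a flagellin sensor, had 71.5, 62.9 and 64.0 CPM in PP2Ac KO, against 56.2, 46.7 and 52.0 CPM in PP2Ac WT. Its log2 fold change was 0.36 (SE 0.08, 95% interval 0.17 to 0.54, edgeR's adjusted p = 0.00814). *Naip2*, which binds the rod protein of type III secretion systems, had 164, 157 and 158 CPM in PP2Ac KO, against 149, 127 and 130 CPM in PP2Ac WT, so that replicate 1 of PP2Ac WT came close to the PP2Ac KO libraries. Its log2 fold change was 0.24 (95% interval 0.07 to 0.41, edgeR's adjusted p = 0.0342). This call was lost when replicate 1, 2 or 3 of PP2Ac KO or replicate 2 or 3 of PP2Ac WT was left out (adjusted p from edgeR of 0.0955, 0.0746, 0.0642, 0.134 and 0.0926), and with upper-quartile scaling (0.0673).

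Both *Naip* genes lie on the reverse strand of chromosome 13, *Naip2* from 100144063 to 100202092 and *Naip5* from 100211739 to 100246323, in a cluster of paralogs. Of the windows of 50 bases in their transcripts, 19.1% in *Naip2* and 36.8% in *Naip5* also occur in transcripts of other genes, with *Naip1* the main partner of *Naip2* (12.3%) and *Naip6* that of *Naip5* (22.3%). The counts of these genes are therefore uncertain to the extent that reads were split or dropped between paralogs. *Naip6* itself had 62.1, 49.0 and 50.2 CPM in PP2Ac KO, against 43.3, 37.4 and 37.8 CPM in PP2Ac WT, a log2 fold change of 0.45 (edgeR's adjusted p = 0.00711). *Naip1*, which binds the needle protein of type III secretion systems, went the other way, with 23, 20 and 15 reads in PP2Ac KO and 67, 52 and 46 in PP2Ac WT. Its log2 fold change was -1.29 (SE 0.24, edgeR's adjusted p = 0.00293).

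*Nlrc4*, the partner of the NAIP proteins, is on the reverse strand, chromosome 17 from 74425438 to 74459142. It had 17.3, 17.6 and 19.3 CPM in PP2Ac KO, against 15.6, 14.8 and 16.8 CPM in PP2Ac WT, a log2 fold change of 0.20 (95% interval 0.03 to 0.37, edgeR's adjusted p = 0.0707). *Nlrp1b*, a sensor that is activated when its N-terminal part is cleaved or degraded, is on the reverse strand, chromosome 11 from 71153102 to 71230733. It had 25.01, 23.5 and 23.4 CPM in PP2Ac KO, against 22.3, 18.5 and 20.7 CPM in PP2Ac WT, a log2 fold change of 0.23 (95% interval 0.05 to 0.40, edgeR's adjusted p = 0.0516). In both genes the nearest libraries of the genotypes differed by 1.03 and 1.05 times. In the fit blocked by replicate number, *Nlrc4* and *Nlrp1b* passed the test (edgeR's adjusted p = 0.0140 and 0.00636), and all 10 genes were then called, where 24.4% of all genes tested were called higher and 26.4% lower. With RLE scaling all 10 were called as well (edgeR's adjusted p = 0.0429 for *Nlrc4* and 0.0420 for *Nlrp1b*). Under RLE, 2653 of the 13680 genes tested were called higher and 2425 lower. *Nlrp1b* also passed without replicate 1 of PP2Ac WT (edgeR's adjusted p = 0.0156). Of windows of 50 bases in their transcripts, 1.09% in *Nlrc4* and 1.45% in *Nlrp1b* are shared with other genes. The upper bounds of the intervals were 1.30-fold for *Nlrc4* and 1.32-fold for *Nlrp1b*.

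*Pycard*, which encodes the adaptor ASC, is on the reverse strand, chromosome 7 from 127989708 to 127993867. It had 25.4, 26.8 and 26.3 CPM in PP2Ac KO, against 20.6, 21.5 and 21.4 CPM in PP2Ac WT. The difference was small and the spread smaller still, with a coefficient of variation of 2.7% in PP2Ac KO and 2.33% in PP2Ac WT. *Pycard* had a log2 fold change of 0.31 (SE 0.06, 95% interval 0.17 to 0.45, edgeR's adjusted p = 0.00344). *Ninj1*, on chromosome 13 (forward strand, 49187485 to 49196244), had 316, 308 and 302 CPM in PP2Ac KO, against 243, 254 and 264 CPM in PP2Ac WT. Its log2 fold change was 0.28 (SE 0.06, 95% interval 0.14 to 0.43, edgeR's adjusted p = 0.00705).

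**Figure D2:**
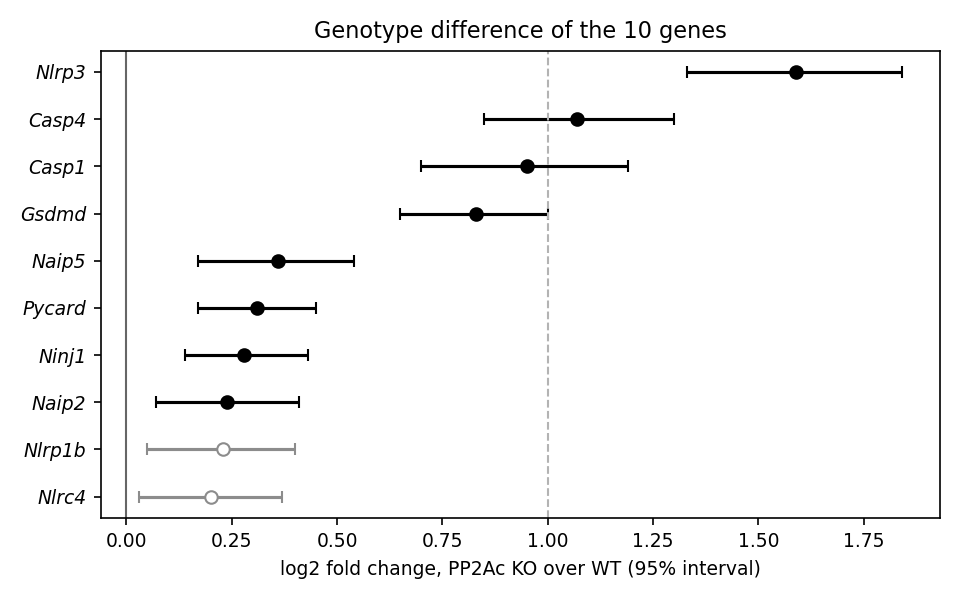
Log2 fold change of each gene, PP2Ac KO over PP2Ac WT, with its 95% interval from edgeR. Filled points passed FDR under 0.05 and open points did not, and the dashed line marks a log2 fold change of 1. The intervals of *Nlrp3*, *Casp4*, *Casp1* and *Gsdmd* begin at 0.65 or more, and those of the other genes end at 0.54 or less.

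The small differences depend on how the libraries were scaled. The TMM factors of PP2Ac KO, 0.910 to 0.937, were below those of PP2Ac WT, 1.05 to 1.10, and with library totals alone the median over all genes moved, on the log2 scale, from -0.02 to -0.24. On that scale 4 members passed the test as higher, *Nlrp3*, *Casp4*, *Casp1* and *Gsdmd*. Of the 13680 genes tested, 1503 were then called higher and 6125 lower. The other 6 members had log2 fold changes between -0.017, for *Nlrc4*, and 0.14, for *Naip5*, with adjusted p-values of 0.127 to 0.920 from edgeR. Scaling moves all genes by nearly the same amount, so that distances from the median of all genes stay the same by construction, 0.22 for *Nlrc4* and 1.61 for *Nlrp3* on the log2 scale. Of all calls, 48.7% were upward under TMM, 38.4% with upper-quartile scaling and 19.7% with library totals. Library totals were tried as a scaling after the data were examined.

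**Figure D3:**
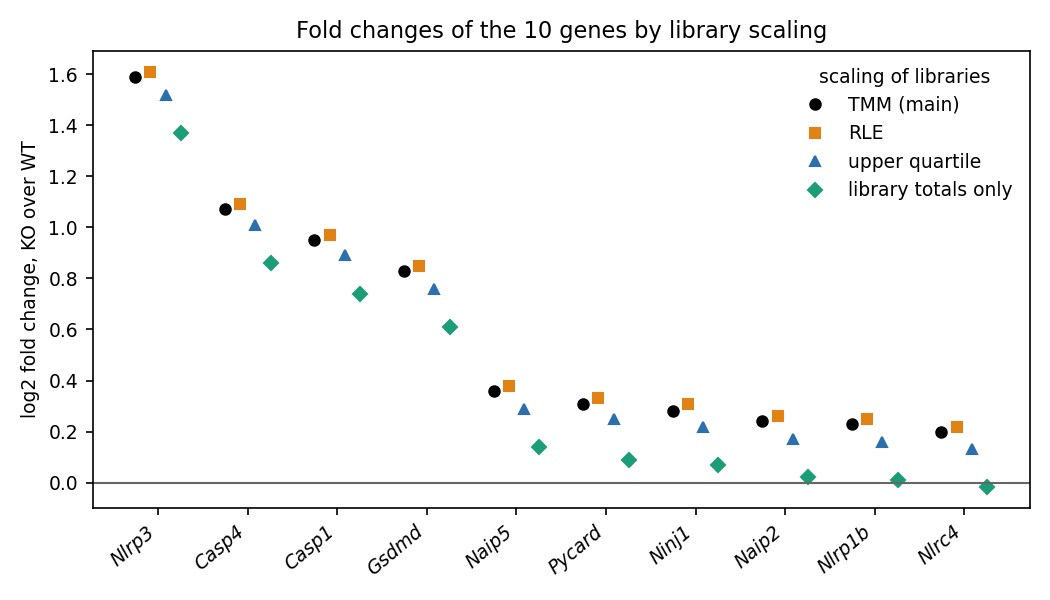
Log2 fold change of each of the 10 genes, PP2Ac KO over PP2Ac WT, under 4 ways of scaling the libraries, with genes ordered by the TMM value. The 4 genes on the left stay at 0.61 or more in every scaling, and the 6 on the right come within 0.14 of 0 with library totals, where *Nlrc4* is at -0.017.

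Levels can be compared between genes only per length, and CPM were therefore divided by the length of the transcript with the longest coding sequence. In PP2Ac WT, *Ninj1* was highest at 192 ± 7.86 CPM per kb (SD, n = 3), followed by *Casp1* at 77.1 ± 13.4, *Gsdmd* at 41.2 ± 4.01, *Casp4* at 33.2 ± 5.06, *Naip2* at 28.1 ± 2.54 and *Nlrp3* at 16.7 ± 1.75. *Naip5* had 9.92 ± 0.922, *Pycard* 5.56 ± 0.130, *Nlrc4* 4.99 ± 0.309 and *Nlrp1b* 4.97 ± 0.459 CPM per kb (SD, n = 3). The ranges of *Gsdmd* and *Casp4*, of *Casp4* and *Naip2*, and of *Nlrc4* and *Nlrp1b* overlapped, and the other neighbours in this order did not. In PP2Ac KO, *Nlrp3* stood above *Naip2*, with 50.1 ± 7.15 and 33.1 ± 0.782 CPM per kb (SD, n = 3) and no overlap, and the ranges of *Gsdmd* and *Casp4* and of *Nlrp1b* and *Nlrc4* overlapped.

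The place of *Pycard* rests on its length. Its annotated transcript has 3800 bp, of which 579 bp are coding, so that most of it lies outside the coding sequence. Per kb of coding sequence *Pycard* had 45.2 CPM in PP2Ac KO, against 36.5 CPM in PP2Ac WT, which ranked 6 and 5 among the 10 genes instead of 8. The order of all genes in length units also assumes that BMDM use the annotated transcripts, which counts per gene do not show.

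**Figure D4:**
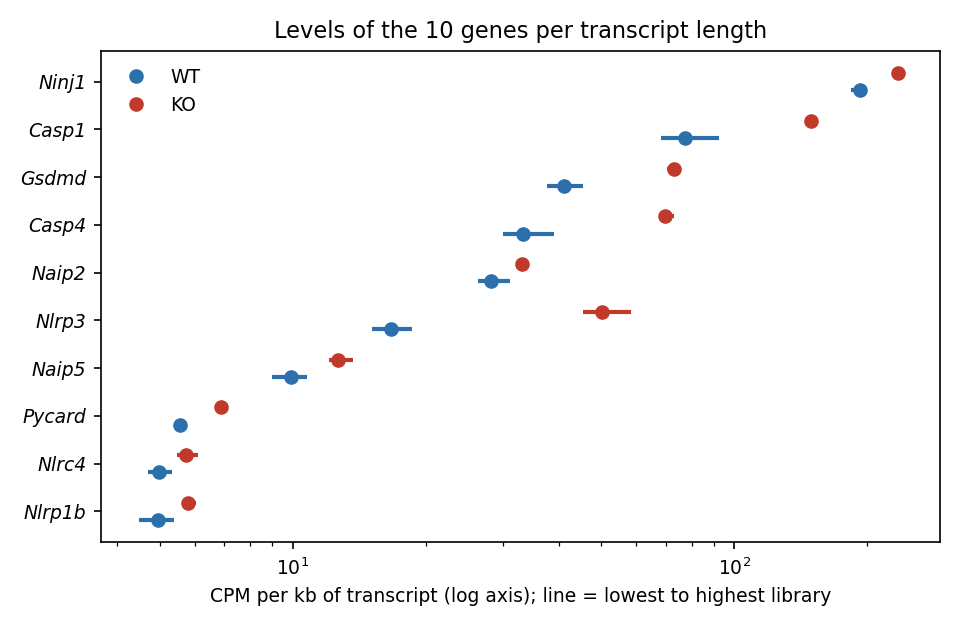
Mean CPM per kb of transcript for each gene in PP2Ac WT (blue) and PP2Ac KO (red) on a log axis, where a line runs from the lowest to the highest of the 3 libraries. *Ninj1* is highest in both genotypes, and *Nlrp3* lies below *Naip2* in PP2Ac WT and above it in PP2Ac KO.

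Summed over the 10 genes, the level was 1314, 1239 and 1220 CPM in PP2Ac KO, against 858, 765 and 783 CPM in PP2Ac WT, a ratio of 1.57 between the means. The makeup of this sum differed. *Nlrp3* took 17.9%, 15.1% and 15.0% of it in PP2Ac KO and 8.71%, 7.95% and 8.41% in PP2Ac WT. *Ninj1* took 24.0%, 24.8% and 24.8% in PP2Ac KO and 28.3%, 33.2% and 33.7% in PP2Ac WT. Shares of 1 sum are bound to each other, and a smaller share of *Ninj1* does not mean a lower level.

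Genes around the 10 were examined in 6 lists, which hold other sensors, other caspases, other gasdermins with *Ninj2*, the IL-1 and IL-18 genes, regulators and triggers, and the ESCRT genes that repair membranes. Of 8 tested genes among 11 other sensors, 5 were higher in PP2Ac KO and 1 lower, beside 18.1% and 19.0% of all genes tested. Their median log2 fold change was 0.65. *Nod1*, a sensor of peptidoglycan, rose from 96.7 ± 19.7 to 239 ± 13.6 CPM (SD, n = 3), and *Mefv*, which encodes pyrin, from 14.5 ± 3.30 to 31.2 ± 4.44 CPM. Their log2 fold changes were 1.31 and 1.10 (edgeR's adjusted p = 1.39e-04 and 7.78e-04). *Nod2* and the DNA sensor *Aim2* rose as well, by 1.02 and 0.84 on the log2 scale (edgeR's adjusted p = 9.21e-04 and 4.32e-04). The fall was that of *Naip1*. *Nlrp1a*, the paralog beside *Nlrp1b*, had 12.2 ± 0.244 and 10.9 ± 0.800 CPM (SD, n = 3) in PP2Ac KO and PP2Ac WT, a log2 fold change of 0.16 (edgeR's adjusted p = 0.150) that turned to -0.05 with library totals. *Nlrp6*, *Nlrp12* and *Nlrp9b* had at most 1 read in any library.

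The precursors cut by caspase-1 were both higher in PP2Ac KO. *Il1b* had 93.7, 87.8 and 61.2 CPM in PP2Ac KO, against 33.8, 34.3 and 17.01 CPM in PP2Ac WT, a log2 fold change of 1.51 (SE 0.25, edgeR's adjusted p = 0.00149). *Il18* had 21.6, 21.9 and 23.8 CPM in PP2Ac KO, against 14.6, 9.68 and 9.83 CPM in PP2Ac WT, a log2 fold change of 0.98 (SE 0.15, edgeR's adjusted p = 8.81e-04). The antagonists rose with them. *Il1rn*, the IL-1 receptor antagonist, went from 52.6 ± 12.5 to 126 ± 25.6 CPM, and *Il18bp*, which binds IL-18, from 17.95 ± 3.38 to 40.2 ± 2.42 CPM (SD, n = 3), with log2 fold changes of 1.26 and 1.16 (edgeR's adjusted p = 7.36e-04 and 1.74e-04). In all, 6 of 9 tested genes of this list rose and 1 fell, beside 18.1% and 19.0% of all genes tested, with a median of 0.98. The gene that fell, named after its values were seen, was the IL-1 receptor *Il1r1*, with a log2 fold change of -0.93. *Il18rap*, a chain of the IL-18 receptor, rose by 1.04 (edgeR's adjusted p = 0.0131), and its adjusted p was 0.0547 without replicate 1 of PP2Ac KO and 0.0507 without replicate 2 of PP2Ac WT.

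Among the 6 other caspases, 4 were higher in PP2Ac KO and 2 lower, beside 18.1% and 19.0% of all genes tested. Their median log2 fold change was 0.63. *Casp8*, the initiator of extrinsic apoptosis that can also cleave gasdermin D, had 268, 264 and 246 CPM in PP2Ac KO, against 175, 146 and 130 CPM in PP2Ac WT, a log2 fold change of 0.79 (edgeR's adjusted p = 4.98e-04). *Casp12* rose by 1.17 on the log2 scale (edgeR's adjusted p = 0.00413) at a low level, with 143, 71 and 104 reads in PP2Ac KO and 76, 47 and 39 in PP2Ac WT. The pair that fell, named after their values were seen, were *Casp6* and *Casp9*, with log2 fold changes of -0.21 and -0.19. By DESeq2 0 of this list were lower, and by limma-voom 1. Of the other gasdermins and *Ninj2*, 9 of 10 were not tested and had at most 13 reads in any library. The exception was *Gsdme*, another pore-forming gasdermin, with 5.19, 5.09 and 5.85 CPM in PP2Ac KO, against 6.16, 6.71 and 6.66 CPM in PP2Ac WT. Its log2 fold change was -0.27 (edgeR's adjusted p = 0.0593, and 0.0246 in the fit blocked by replicate number). It was thus not called by edgeR, DESeq2 or limma-voom, and its unadjusted p was under 0.05.

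**Figure D5:**
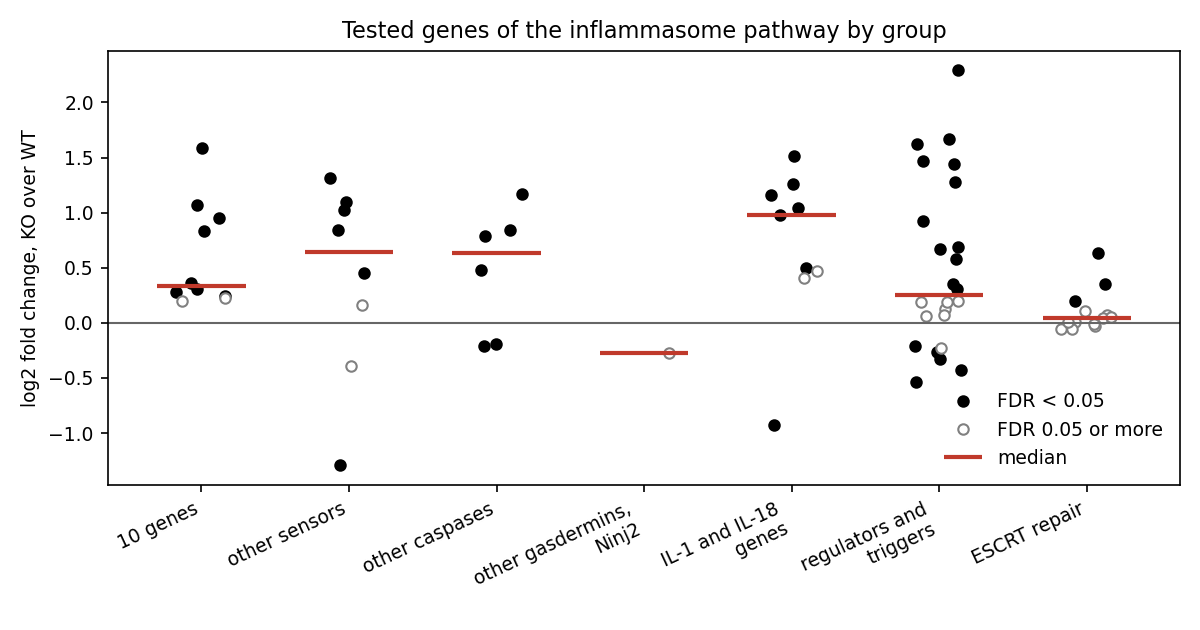
Log2 fold change, PP2Ac KO over PP2Ac WT, of each tested gene in the set of 10 and in 6 lists around it, where filled points passed FDR under 0.05, open points did not and red lines are medians. The medians run from -0.27, for the single tested gene of the gasdermin list, to 0.98 for the IL-1 and IL-18 genes, and the median of the ESCRT genes is 0.04.

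Of 24 tested regulators and triggers, 12 were higher in PP2Ac KO and 5 lower, beside 18.1% and 19.0% of all genes tested. Their median log2 fold change was 0.26. *Acod1*, which makes the inflammasome inhibitor itaconate, rose most, from 199 ± 52.9 to 974 ± 140 CPM (SD, n = 3), with log2 fold change 2.29 (edgeR's adjusted p = 6.16e-05). The interferon-inducible *Gbp2*, *Zbp1* and *Gbp5*, of which the guanylate-binding proteins help caspase-11 to reach lipopolysaccharide, rose by 1.67, 1.62 and 1.47 (edgeR's adjusted p = 4.54e-04, 4.02e-04 and 3.85e-04). *Irf2*, a factor needed for transcription of *Gsdmd*, had 279, 261 and 266 CPM in PP2Ac KO, against 187, 163 and 158 CPM in PP2Ac WT, a log2 fold change of 0.67 (edgeR's adjusted p = 2.90e-04). *Irf8*, needed for the *Naip* genes, rose by 0.35 (edgeR's adjusted p = 0.00214). *Nek7*, the kinase that NLRP3 needs to assemble, had 182 ± 4.35 and 167 ± 17.1 CPM (SD, n = 3) with overlapping libraries and a log2 fold change of 0.13 (edgeR's adjusted p = 0.248, 0.0443 in the fit blocked by replicate number and 0.0167 without replicate 1 of PP2Ac WT), which turned to -0.09 with library totals.

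The 5 of 24 regulators that fell, a share near the 19.0% of all genes tested that were lower, are named after their values were seen, and by DESeq2 4 of the list were lower. The potassium channels *Kcnk13* and *Kcnk6* had log2 fold changes of -0.54 and -0.26, and *P2rx7*, the receptor for extracellular ATP, had one of -0.21. *Txnip*, reported to bind NLRP3 under oxidative stress, and *Zdhhc7*, a palmitoyltransferase that acts on gasdermin D, had log2 fold changes of -0.43 and -0.33. *Zdhhc5*, which encodes another palmitoyltransferase that acts on gasdermin D and was also named after its values were seen, was higher in PP2Ac KO, with a log2 fold change of 0.31 (edgeR's adjusted p = 0.0139). Of the 13 tested ESCRT genes, whose products remove gasdermin pores from the membrane, 3 were higher and 0 lower. Among all genes tested, 18.1% were higher, a share near that of this list, and 19.0% lower. The median log2 fold change of the ESCRT genes was 0.04. By DESeq2 and limma-voom 0 of them were lower too, where 2280 and 2571 of all genes tested were. At an unadjusted p under 0.05 also 0 were lower, a threshold for which no share of all genes is given here. *Chmp4b* rose from 364 ± 20.02 to 563 ± 30.3 CPM (SD, n = 3), with log2 fold change 0.63 (edgeR's adjusted p = 2.81e-04). *Chmp5* and *Chmp2a* rose by 0.35 and 0.20 (edgeR's adjusted p = 0.00223 and 0.0271), and *Chmp2a* was at -0.01 with library totals. The 6 lists hold 77 genes with the untested ones. In the order in which the lists were introduced, 8, 6, 1, 9, 24 and 13 genes were tested. Of these tested genes, 30 were higher and 9 lower, beside 18.1% and 19.0% of all genes tested. Without replicate 2 or replicate 3 of PP2Ac KO, 5 were lower.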

How the data were processed

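The authors deposited 1 table with counts of reads per gene symbol for each of the 6 BMDM libraries, as whole numbers without normalization on mm10. The submitters' processing notes name fastp 0.20.0, kallisto 0.46.1, STAR 2.7.1a, HTSeq 0.11.2, edgeR 3.34.0 and limma 3.48.3, without saying which made the table. The annotation release and the strand setting are not given in the sources used here. The libraries were made with a strand-specific kit after poly(A) selection. All 6 columns were matched to samples by genotype and replicate number, and 0 columns were left out.

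The tests used edgeR 4.0.16 in R 4.3.3. After filterByExpr (minimum count 10, minimum total 15) and TMM scaling, genotype was tested by the quasi-likelihood F test (glmQLFit, glmQLFTest), and p-values of all 13680 remaining genes were adjusted by Benjamini-Hochberg. CPM use the TMM factors, and standard errors are the log2 fold change over the square root of F. Permutation of 3 against 3 libraries cannot give an exact p below 0.1. Libraries of a genotype differed by 9.54 to 46.0 times the variance of counting alone. Depth bounds counting error only, because reads can be PCR copies of 1 molecule. Deviations from the group means correlated at 0.289, 0.148 and 0.337 between libraries numbered 1, 2 and 3, across genes. The replicate numbers, which come from the labels, were used as a block in an alternative fit only. The main fit held genotype alone and did not pair the libraries.

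Loci and transcript lengths are from GENCODE M21 (GRCm38), in which 98.3% of the symbols occur, and promoters from RefSeq. Alternatives were RLE and upper-quartile scaling, other filters on low counts, the replicate block, each library left out, DESeq2 1.42.0 and limma-voom (limma 3.58.1), with library totals added later. The members, lists and tests were chosen with earlier results of these data known. Named by rule were the 10 genes, up to 4 genes per list with the largest change at FDR under 0.05, and a fixed set of partners and paralogs, *Il1b*, *Il18*, *Naip1*, *Naip6*, *Nlrp1a*, *Nek7*, *Irf2*, *Irf8* and *Aim2*. A few items under this rule are not reported here. Of the marker lists fixed for other cells, lymphoid markers summed to 0.801 to 1.49 CPM in PP2Ac KO and 0.501 to 0.667 CPM in PP2Ac WT, and dendritic cell markers to 1.46 to 2.36 and 1.41 to 1.83 CPM. The fit was tested on simulated data.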

Additional observations from a re-analysis of the deposited data

How the results depend on the processing

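Of the 140 values for the 10 genes under the 14 alternatives, 124 kept their direction and their side of FDR 0.05, 10 lost the call, 5 gained it and 1 turned sign. Losses were in *Naip2*, *Naip5*, *Pycard* and *Ninj1*, and gains in *Nlrp1b* and *Nlrc4*. With library totals alone, added after the data were examined, 4 members were higher, 1 passed the log2 fold change over 1 with FDR under 0.01, 17 genes of the 6 lists were lower, and 1503 genes in all were higher and 6125 lower. On the same scale the log2 fold change was -0.017 for *Nlrc4*, -0.05 for *Nlrp1a*, -0.09 for *Nek7* and -0.01 for *Chmp2a*. These shifts follow from the scaling itself, which moved all genes alike. The number of lower genes on the lists ran from 5 to 9 when libraries were left out in turn. In the fit blocked by replicate number, 10 members were higher in place of 8, 34 genes of the lists were higher and 11 lower, and 3343 genes in all were higher and 3615 lower. The log2 differences in the ratios of *Casp4* to *Casp1* and of *Nlrp3* to *Pycard*, 0.12 and 1.27, are the same with the replicate block by construction. The smallest exact p that this block allows is 0.25. Other named genes gave 364 values, of which 349 were on the same side, 10 lost the call, 2 gained it and 3 turned sign. Many of these genes were named because they passed FDR 0.05 in the main fit, so the count is no independent support. The members had at least 582 reads in each library, and the untested gasdermin genes and *Ninj2*, with up to 13, were too shallow to compare.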

Other observations

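The spread between libraries is given for the 4 genes with the larger differences. In PP2Ac WT the coefficient of variation was 17.4% for *Casp1*, 15.2% for *Casp4*, 10.5% for *Nlrp3* and 9.74% for *Gsdmd*, against 1.02%, 3.95%, 14.3% and 3.07% in PP2Ac KO. Replicate 1 of PP2Ac WT was the highest library of its genotype in these 4 genes, and also in *Aim2*, at 115 CPM against 88.6 and 85.8, and in *Gbp2*, at 517 CPM against 318 and 263. It was the lowest of its genotype for *Pycard* and *Ninj1*. Without this library the log2 fold changes of *Nlrp3*, *Casp1*, *Casp4* and *Gsdmd* were 1.67, 1.10, 1.20 and 0.91. With 3 libraries per genotype no test of the spread was made.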
